A study of Homo sapiens with 6 samples.

Results

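The genes described here carry copper into, through and out of cells or bind it inside them. They were chosen by name and comprise the importer genes SLC31A1 and SLC31A2, the exporting ATPase genes ATP7A and ATP7B, the chaperone genes ATOX1, CCS and COX17, and the metallothionein genes MT2A, MT1X and MT1E. All 10 were found among the 60835 distinct gene names of the deposited table, and 8 of them passed the count filter that left 15346 genes for testing. SLC31A2 and MT1X did not pass it. RNA was sequenced from cultured HEY cells, a widely used human line of ovarian cancer origin. Of the 6 libraries, 3 came from cells given an siRNA against CCNL2 (siCCNL2) and 3 from cells given a control siRNA (siNC). CCNL2 encodes cyclin L2, a partner of CDK11 kinases. The treatment note gives 48 h with the CCNL2 siRNA for all 6 libraries alike, so the time of the controls is taken to be the same and was not stated separately. All libraries stem from 1 cell line, the number of siRNA sequences used is not given in the sources used here, and no library was labelled as exposed to cisplatin or added copper.

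Copper enters cells as the reduced ion through the trimeric channel CTR1, the product of SLC31A1, and is handed at once to small chaperones. ATOX1 takes it to the ATPases ATP7A and ATP7B in the Golgi apparatus, which load secreted copper enzymes or pump copper out, CCS takes it to the superoxide dismutase SOD1, and COX17 takes it towards cytochrome c oxidase in mitochondria. Metallothioneins are short, cysteine-rich proteins that hold zinc and copper, and their genes are switched on by the metal-sensing factor MTF1. The same proteins are studied in ovarian cancer because CTR1, the ATPases and metallothioneins have each been linked to the uptake, export or binding of cisplatin, an interest that fits the series title, which names cisplatin resistance.

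Total counts ran from 13596286 to 18095529 in siCCNL2 libraries and from 15771604 to 16934044 in siNC libraries. CCNL2 itself, the check of the labels, stood at 203, 182 and 186 CPM in siCCNL2 and at 261, 267 and 246 CPM in siNC, where CPM is the count of a gene scaled to library size with TMM factors. The log2 fold change was -0.44 (SE 0.044; edgeR's quasi-likelihood test, adjusted p = 2.15e-08), and mean CCNL2 fell by 26.4%, so transcript remained in all siCCNL2 libraries. Whether each library stands for its own culture is not labelled. The p-values therefore reflect library-to-library spread alone, and part or all of that may be technical. Of 8 carcinoma markers, KRT7, KRT8, KRT18 and PAX8 were well expressed and MUC16 was below the count filter. WT1 was low, with means of 6.33 CPM in siCCNL2 and 8.64 CPM in siNC. EPCAM stood at 2.91, 2.46 and 2.80 CPM in siCCNL2, above its 1.36, 1.96 and 2.20 CPM in siNC. MSLN stood at 1.43, 1.34 and 1.91 CPM in siCCNL2 and at 2.19, 1.71 and 1.76 CPM in siNC. The summed level of the 8 markers was 1650 to 1802 CPM in siCCNL2 and 2165 to 2239 CPM in siNC. Leukocyte, erythroid, hepatocyte and enterocyte markers were each below the filter, with sums of at most 1.04 CPM. The 3 endothelial markers summed to 45.3 to 54.8 CPM in siCCNL2 and 115 to 120 CPM in siNC, nearly all of it CDH5, with PECAM1 at 0.915 and 2.38 CPM and VWF at 0.940 and 0.887 CPM (means of siCCNL2 and siNC). The part of these marker shifts in the results on copper genes was not tested. In RNA from bulk cultures, fewer cells expressing a gene and less RNA per cell cannot be told apart.

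Among the 8 copper transport and metallothionein genes tested, SLC31A1 showed the largest fall. Both ATPase genes and CCS were lower by less, MT2A was slightly lower, COX17 was higher, and ATOX1 and MT1E were not called. Of the 8 tested genes, 5 fell (SLC31A1, ATP7A, ATP7B, CCS and MT2A) and 1 rose (COX17) at an adjusted p under 0.05. Across all 15346 tested genes 33.6% were called in this comparison, 17.2% higher and 16.5% lower. The median log2 fold change was -0.23 over the 8 genes and 0.00232 over all tested genes. Libraries of the groups did not overlap for 5 of the 8 genes, against 43.9% of all tested genes. The count of 5 lower genes dropped to 2, SLC31A1 and MT2A, with the DESeq2 Wald test, on the deposited TPM-like score with either pseudocount, and at an adjusted p under 0.01, and it was also 2 without siNC replicate 1. It was 3 without siCCNL2 replicate 1, siCCNL2 replicate 2 or siNC replicate 3. These directions are therefore given gene by gene, with the libraries that decide them.

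**Figure D1:**
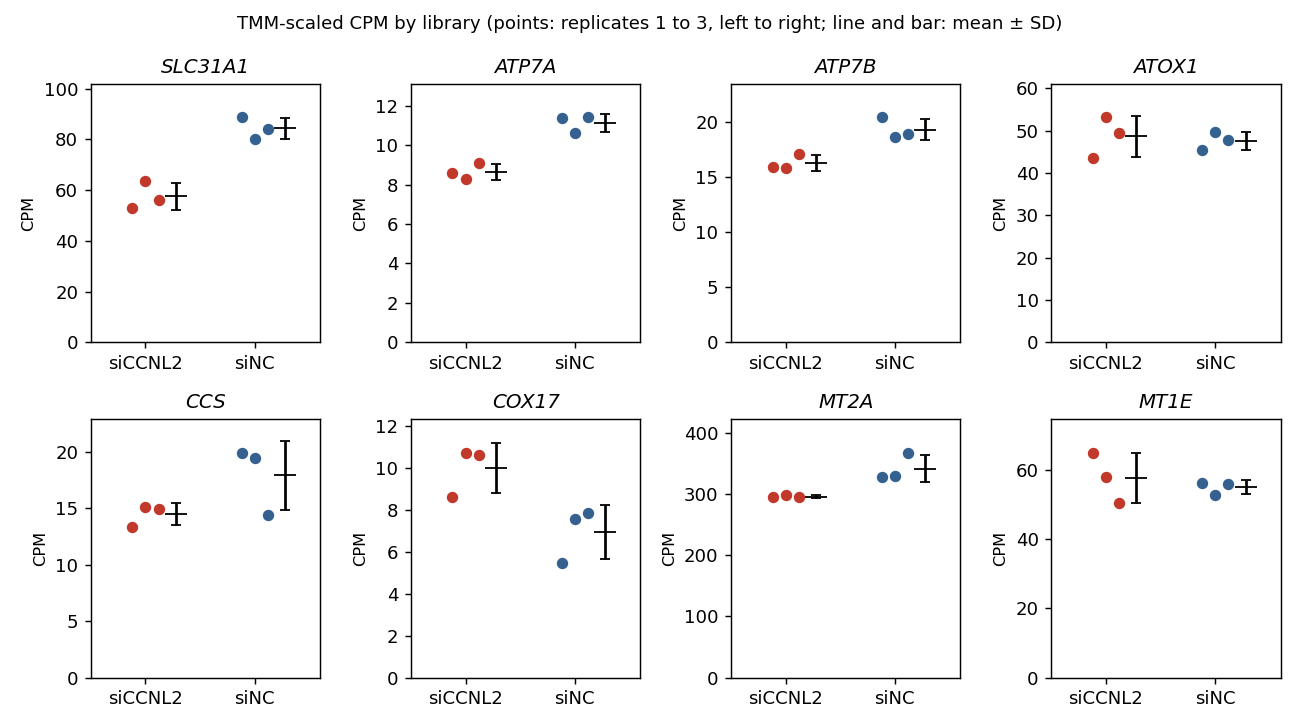
TMM-scaled CPM of the 8 tested genes in each of the 6 libraries, siCCNL2 in red and siNC in blue, with the mean and SD of 3 libraries beside the points. The groups are apart for SLC31A1, ATP7A, ATP7B, COX17 and MT2A and overlap for ATOX1, CCS and MT1E.

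SLC31A1 (ENSG00000136868) encodes the high-affinity copper importer CTR1 and spans bases 113221544 to 113264492 of chromosome 9 (GRCh38, plus strand). It stood at 53.0, 63.5 and 56.3 CPM in siCCNL2 libraries and at 88.7, 80.2 and 84.2 CPM in siNC libraries. Every siCCNL2 library was below every siNC library, and the gap between the groups was wider than the spread within either. The mean was 57.6 ± 5.39 CPM in siCCNL2 and 84.4 ± 4.24 CPM in siNC (SD, n = 3 each), so that it fell by 31.7% on a log2 fold change of -0.56 (SE 0.061; edgeR adjusted p = 9.50e-08). A two-sided exact permutation test gave p = 0.1, its lowest possible value with 3 against 3 libraries. The log2 fold change ran from -0.63 to -0.49 over 17 alternatives, and the call held in each of them. In the order by p-value SLC31A1 ranked 557 of 15346 tested genes, and 600 genes called lower had a more negative log2 fold change.

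The nearest gene on the left of SLC31A1 is FKBP15, which runs the opposite way and ends 86 bases before it. The stretch between these genes is shown because both start beside it and only SLC31A1 was called: FKBP15 averaged 80.1 CPM in siCCNL2 and 80.4 CPM in siNC (log2 fold change -0.01, adjusted p = 0.922). It covers chr9:113221459-113221543 on the plus strand (85 bases, RefSeq promoter table, GRCh38.p14), with capitals marking GGGCGG, the core of the GC box bound by Sp1-type factors.
SLC31A1 upstream: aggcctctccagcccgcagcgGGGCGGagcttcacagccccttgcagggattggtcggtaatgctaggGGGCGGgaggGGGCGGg
A search of both strands found 3 copies of GGGCGG here, all on the strand shown, and none in the 50 bases that follow in the 300-base window of that table. In windows of the other genes, COX17 had 0 and 4 copies, ATP7B had 3, 3 and 0, ATOX1, MT2A and MT1X had 2 each, and CCS and ATP7A had none. At least 1 copy was present in 45% of 35116 RefSeq promoter windows of the same length, so the match is common and describes the sequence only. On the other side, CDC26 overlaps SLC31A1 over 8658 bases on the opposite strand and was not called (log2 fold change 0.14, adjusted p = 0.383), with 1385 counts in all against 6817 for SLC31A1. No source used here says whether counting used strand, and reads from genes that overlap cannot be told apart without it. The next tested gene to the right, PRPF4, was not called either (log2 fold change 0.08, adjusted p = 0.168).

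SLC31A2 encodes CTR2, a relative of CTR1 found mainly on internal membranes, and lies 57404 bases to the left of SLC31A1. It had 2, 5 and 7 counts in siCCNL2 libraries and 4, 6 and 7 in siNC libraries. With so few reads the groups overlapped fully and no difference was detectable at this depth. Without a count filter edgeR's quasi-likelihood test gave it a log2 fold change of -0.21 (SE 0.70, adjusted p = 0.892). Of the 50-base words in its annotated transcripts, 59.4% also occur in transcripts of FKBP15 on the opposite strand, so even these few reads are uncertain.

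The exporters were both lower on a smaller scale. ATP7A (chromosome X, 77910690 to 78050395, plus strand), the Menkes disease gene, had 157, 111 and 143 counts in siCCNL2, or 8.61, 8.28 and 9.10 CPM, and 193, 168 and 182 counts in siNC, or 11.4, 10.6 and 11.4 CPM. The groups did not overlap. Its log2 fold change was -0.36 (SE 0.115; edgeR adjusted p = 0.0175), with a 95% interval from -0.60 to -0.12. The call was lost without siCCNL2 replicate 2 (adjusted p = 0.0571), siNC replicate 1 (0.0596) or siNC replicate 3 (0.0553), with the DESeq2 Wald test (0.0506) and on the score. ATP7A lies almost wholly within the span listed for PGK1 on the same strand, a gene with 57954 counts against 954 for ATP7A that was itself not called (log2 fold change -0.06, adjusted p = 0.162), while 2.06% of the 50-base words in ATP7A transcripts occur in other annotated genes.

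ATP7B (chromosome 13, 51930436 to 52012125, minus strand), the Wilson disease gene and the ATPase most studied for platinum, stood at 15.9, 15.8 and 17.1 CPM in siCCNL2 and at 20.4, 18.6 and 18.8 CPM in siNC. All siCCNL2 libraries were again below all siNC libraries, with siCCNL2 replicate 3 nearest to them. Its log2 fold change was -0.25 (SE 0.089; edgeR adjusted p = 0.0358), and the 95% interval ran from -0.43 to -0.06. The call was lost without siCCNL2 replicate 1 (adjusted p = 0.102), siCCNL2 replicate 2 (0.0943), siNC replicate 1 (0.151) or siNC replicate 3 (0.053), without a count filter (0.0674), with the DESeq2 Wald test (0.0883) and on the score. It lay between -0.28 and -0.20 in all 17 alternatives. By the per-length score, ATP7B was 2.39, 2.47 and 2.43 times as high as ATP7A in siCCNL2 libraries and 2.32, 2.27 and 2.14 times as high in siNC libraries, so both ATPase genes were expressed, with ATP7B the more abundant in each library. The importer outweighed both ATPases together on the same scale in each library, by 3.27, 3.97 and 3.25 times in siCCNL2 and by 4.22, 4.16 and 4.23 times in siNC.

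The 3 chaperone genes went different ways. ATOX1 (chromosome 5, 151742316 to 151772532, minus strand), which feeds the ATPases, stood at 43.5, 53.2 and 49.5 CPM in siCCNL2 and at 45.4, 49.7 and 47.8 CPM in siNC. The siCCNL2 libraries spread around the siNC libraries on both sides. The difference was 0.03 on the log2 scale (SE 0.067; edgeR adjusted p = 0.801), with a 95% interval from -0.11 to 0.17. It changed sign to -0.034 without siCCNL2 replicate 2 and to -0.0056 without siNC replicate 1. ATOX1 overlaps G3BP1 over 1488 bases on the opposite strand, a gene with 61720 counts against 4602.

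CCS (chromosome 11, 66593153 to 66606019, plus strand), the chaperone of SOD1, had 13.3, 15.1 and 14.9 CPM in siCCNL2 libraries and 19.9, 19.5 and 14.4 CPM in siNC libraries. The groups overlapped, since siNC replicate 3 lay within the siCCNL2 values, and an exact permutation test (two-sided) gave p = 0.3. edgeR gave a log2 fold change of -0.32 (SE 0.113; adjusted p = 0.0331). It is a call that 4 of the 6 libraries decide: it was lost without siCCNL2 replicate 1 (adjusted p = 0.123), siCCNL2 replicate 3 (0.0672), siNC replicate 1 (0.186) or siNC replicate 2 (0.158), and it was also lost with the DESeq2 Wald test (0.0645) and on the score. Without siNC replicate 3 the log2 fold change was -0.45 (adjusted p = 0.00155). SOD1, which receives copper from CCS and was picked out after its values were seen, averaged 136 CPM in siCCNL2 and 129 CPM in siNC (log2 fold change 0.08, adjusted p = 0.242). Of the 50-base words in CCS transcripts 8.18% occur in CCDC87 on the opposite strand. Its nearest tested neighbours were RBM14, 10607 bases away, which fell (log2 fold change -0.21, edgeR adjusted p = 6.05e-04), and ZDHHC24, which was not called (-0.18, adjusted p = 0.156).

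COX17 (chromosome 3, 119654513 to 119677454, minus strand), which delivers copper towards cytochrome c oxidase, was the gene that rose. It had 157, 144 and 167 counts in siCCNL2, or 8.61, 10.7 and 10.6 CPM, and 93, 120 and 125 counts in siNC, or 5.49, 7.58 and 7.84 CPM. Every siCCNL2 library was above every siNC library, with siCCNL2 replicate 1 nearest to the siNC values and siNC replicate 1 the lowest of all. The mean was 9.99 ± 1.20 CPM in siCCNL2 and 6.97 ± 1.29 CPM in siNC (SD, n = 3 each), on a log2 fold change of 0.51 (SE 0.145; edgeR adjusted p = 0.00763). Without siNC replicate 1 the log2 fold change was 0.37 and the call was lost (adjusted p = 0.069), while each of the other 16 alternatives called it higher, with log2 fold changes up to 0.62. COX17 shares 12.8% of its 50-base words with POPDC2, which overlaps it on the same strand and had 16 counts in all against 806 for COX17. Its nearest tested neighbours were ADPRH, which fell (log2 fold change -0.76, adjusted p = 0.00381), and GSK3B, which was not called (0.06, adjusted p = 0.382).

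Set side by side within a library, importer and mitochondrial chaperone changed places on the per-length score. The per-length score of SLC31A1 was 0.853, 0.82 and 0.734 times that of COX17 in siCCNL2 libraries and 2.24, 1.47 and 1.49 times that of COX17 in siNC libraries. SLC31A1 was thus below COX17 on this score in each siCCNL2 library and above it in each siNC library. Which gene is the higher depends on the scaling by length. In CPM, which is not scaled by length, SLC31A1 averaged 57.6 and COX17 9.99 in siCCNL2, against 84.4 and 6.97 in siNC. ATOX1, which was tested but not called, reached 0.901, 0.918 and 0.964 times the score of SLC31A1 in siCCNL2 and 0.562, 0.68 and 0.623 times in siNC. These ratios carry no test, since SLC31A1 and COX17 were already known to differ between the groups.

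**Figure D2:**
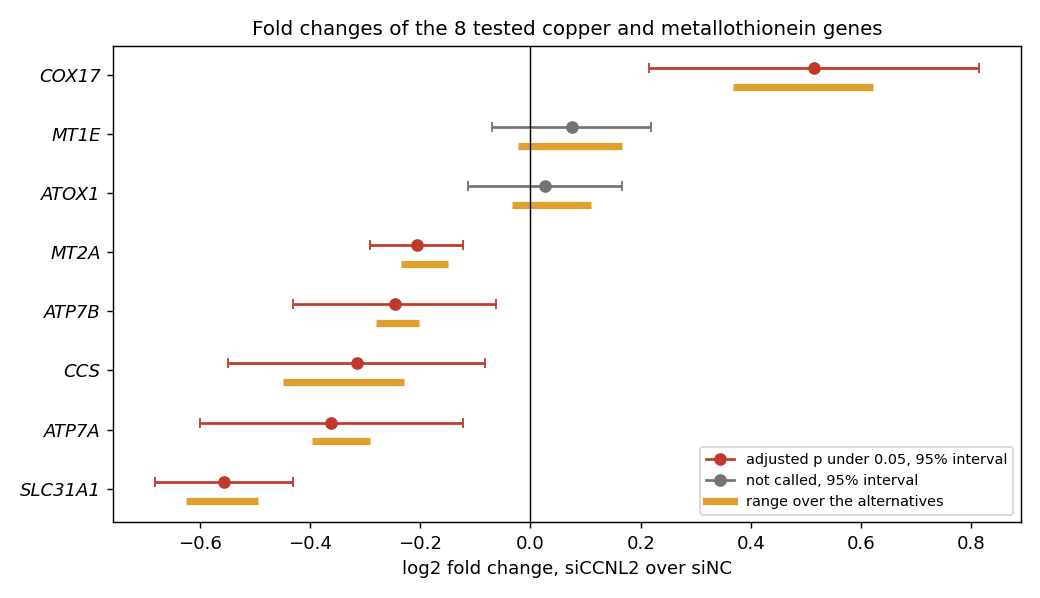
Log2 fold change (siCCNL2 over siNC) of the 8 tested genes with its 95% interval, red where called at an adjusted p under 0.05 and grey where not, and in orange the range over the 17 alternatives. SLC31A1 sits lowest at -0.56 and COX17 highest at 0.51, and only the orange bars of ATOX1 and MT1E cross 0.

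Metallothionein RNA in these cells came almost wholly from MT2A and MT1E. The coding sequences of the 3 metallothionein genes are shown because reads from such close copies can be hard to place. Each has 186 bases with the stop codon (GENCODE release 29, GRCh38, chromosome 16, plus strand, exons joined), and capitals mark the in-frame TGC and TGT codons for cysteine, the residue that binds the metal.
MT2A: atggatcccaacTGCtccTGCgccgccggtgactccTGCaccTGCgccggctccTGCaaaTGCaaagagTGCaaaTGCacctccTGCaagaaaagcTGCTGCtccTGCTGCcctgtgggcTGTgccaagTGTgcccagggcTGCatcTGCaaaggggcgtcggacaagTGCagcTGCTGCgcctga
MT1E: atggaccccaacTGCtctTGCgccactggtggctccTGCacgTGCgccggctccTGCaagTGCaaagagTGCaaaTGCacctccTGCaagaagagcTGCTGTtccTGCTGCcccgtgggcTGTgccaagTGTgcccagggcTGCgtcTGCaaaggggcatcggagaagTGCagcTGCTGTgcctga
MT1X: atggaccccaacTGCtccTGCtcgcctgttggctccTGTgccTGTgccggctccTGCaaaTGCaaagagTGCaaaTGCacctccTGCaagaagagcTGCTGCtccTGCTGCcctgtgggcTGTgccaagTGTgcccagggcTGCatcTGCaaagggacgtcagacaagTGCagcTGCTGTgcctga
Each of them has 61 codons before the stop, 20 of them for cysteine. MT2A matched MT1E at 172 of 186 bases (92.5%) and MT1X at the same number, and MT1E matched MT1X at 169 (90.9%). Over whole annotated transcripts, 3.02% of the 50-base words of MT2A, 7.1% of those of MT1E and 18.3% of those of MT1X occur in other genes, most of those of MT1X in the overlapping AC026461.1, which had 0 counts. Counts of these genes are uncertain to that extent, since the sources used here do not say how reads with several possible sources were treated.

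MT2A (56608584 to 56609497), the main metallothionein gene of most cells, stood at 295, 298 and 295 CPM in siCCNL2 libraries and at 327, 330 and 368 CPM in siNC libraries. The siCCNL2 values were nearly equal to each other and below all siNC values, of which replicate 3 was the highest. The mean was 296 ± 1.95 CPM in siCCNL2 and 342 ± 22.6 CPM in siNC (SD, n = 3 each), so that it fell by 13.3% (log2 fold change -0.21, SE 0.041; edgeR adjusted p = 3.10e-04). The call held in all 17 alternatives, with a log2 fold change from -0.24 to -0.15 and adjusted p-values up to 0.00607.

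MT1E (56625475 to 56627112) stood at 64.9, 57.8 and 50.5 CPM in siCCNL2 and at 56.3, 52.6 and 55.8 CPM in siNC. The siNC libraries lay within the range of the siCCNL2 libraries. A log2 difference of 0.07 (SE 0.070; edgeR adjusted p = 0.449) had a 95% interval from -0.07 to 0.22, and it turned to -0.022 without siCCNL2 replicate 1. MT1X (56682470 to 56684196) had 8, 7 and 4 counts in siCCNL2 and 8, 6 and 6 in siNC, overlapping counts at the edge of detection. Without a count filter its log2 fold change was -0.03 (SE 0.62).

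Of all reads assigned to metallothionein genes and their pseudogenes, MT2A took 81.5%, 82.8% and 84.8% in siCCNL2 libraries and 84.7%, 85.4% and 86.2% in siNC libraries, and MT1E took 18.0%, 16.0% and 14.5% in siCCNL2 and 14.6%, 13.6% and 13.1% in siNC. The summed level of the family was 361, 360 and 348 CPM in siCCNL2 and 386, 386 and 426 CPM in siNC. This sum, most of it MT2A, was lower in every siCCNL2 library, while MT1E averaged 57.7 CPM in siCCNL2 and 54.9 CPM in siNC. The share of MT2A overlapped between the groups by a narrow margin. The 10 other metallothionein genes were all below the count filter, and 4 of them had no read in any library. The most counted of them, MT1A, had 1, 2 and 1 reads in siCCNL2 and 6, 12 and 10 in siNC. Those counts did not overlap, and without a count filter MT1A was called lower (edgeR adjusted p = 0.0094). The few reads in all of siCCNL2 give no reliable fold.

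The 250 bases before MT2A (chr16:56608334-56608583, plus strand, RefSeq promoter table, GRCh38.p14) are shown because the transcript of MT2A fell and that of its regulator MTF1 rose. Capitals mark TGCACNC and TGCGCNC on either strand, the core of the metal response element that MTF1 recognises.
MT2A upstream: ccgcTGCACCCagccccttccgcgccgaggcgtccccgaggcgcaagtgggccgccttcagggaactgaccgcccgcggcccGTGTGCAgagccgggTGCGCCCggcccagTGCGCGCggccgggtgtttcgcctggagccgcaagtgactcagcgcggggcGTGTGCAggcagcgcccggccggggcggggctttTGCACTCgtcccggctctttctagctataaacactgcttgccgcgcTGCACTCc
There are 7 copies in these bases, and 8 in the whole 300-base window of that table, against 4 in the window of MT1X and none in that of SLC31A1. The windows of ATOX1 and CCS held 2 each, windows 1 and 2 of COX17 held 1 each, windows 1 to 3 of ATP7B held 1, 2 and 0, and ATP7A had none. At least 1 copy occurred in 29.6% of 35116 RefSeq promoter windows, a share that gives no reference for larger numbers of copies. Overlapping matches were counted separately, and a match shows the letters, not a bound site. MT1E and SLC31A2 have no window in the table used here.

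**Figure D3:**
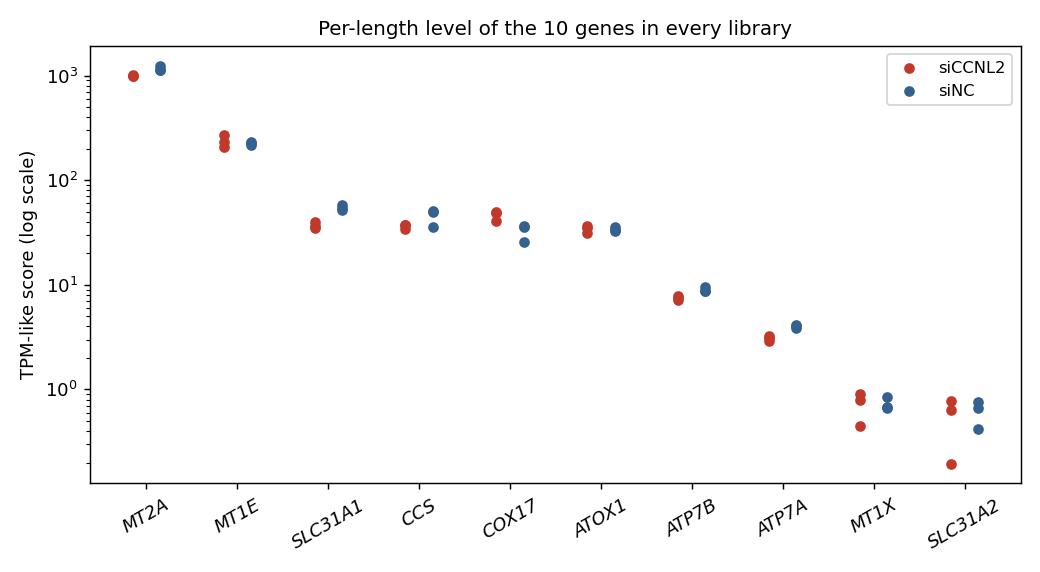
Deposited TPM-like score, a level per gene length, of the 10 genes in each library on a log axis, siCCNL2 in red to the left of siNC in blue, placed left to right by the mean of all 6 libraries, an order that differs within each group. MT2A averages 1082, MT1E 231, SLC31A1, CCS, COX17 and ATOX1 share a band from 25.7 to 57.6, and MT1X and SLC31A2 stay below 1.

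On the per-length score, MT2A averaged 1001 in siCCNL2 and 1163 in siNC, and MT1E averaged 236 in siCCNL2 and 226 in siNC, above all other genes described in every library. The order of the next 4 genes differed between the groups. In siCCNL2 it was COX17 (mean score 46.2), SLC31A1 (36.9), CCS (36.3) and ATOX1 (34.2), where COX17 lay above SLC31A1 in every library and the ranges of SLC31A1, CCS and ATOX1 overlapped from each to the next. In siNC it was SLC31A1 (54.5), CCS (45.4), ATOX1 (33.8) and COX17 (32.5), where SLC31A1 lay above the range of CCS, CCS lay above that of ATOX1, and the ranges of ATOX1 and COX17 overlapped. ATP7B (7.50 in siCCNL2 and 8.96 in siNC) and ATP7A (3.09 in siCCNL2 and 4.0 in siNC) followed in both groups, without overlap. MT1X (0.715 in siCCNL2 and 0.729 in siNC) and SLC31A2 (0.537 in siCCNL2 and 0.617 in siNC) were last, and their ranges overlapped in both groups.

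The wider lists around these genes held calls in both directions, except that of copper delivery to mitochondria, where calls were all lower. The called share of tested genes was 47.4% for zinc transporters and MTF1, 38.1% for copper enzymes and copper proteins, and 33.3% for mitochondrial copper delivery. It was 31.6% for copper reduction and ATPase trafficking, 28.6% for lipoylation and copper-induced death, and 40% for other platinum genes. Across all tested genes 33.6% were called, and the median log2 fold change was 0.00232. In the list of zinc transporters and MTF1, 5 of 19 tested genes rose and 4 fell, with a median log2 fold change of 0.07. MTF1, the factor that switches on metallothionein genes, rose to 58.4 ± 1.17 CPM in siCCNL2, against 40.1 ± 1.34 CPM in siNC (SD, n = 3 each; log2 fold change 0.54, adjusted p = 4.89e-08). The zinc importer genes SLC39A14 (log2 fold change 0.45), SLC39A7 (0.44) and SLC39A9 (0.35) rose, as did SLC30A1, a zinc exporter gene and classic target of MTF1 that was picked out after its values were seen (0.22, adjusted p = 0.00938). SLC30A1 was not called without siNC replicate 1 (adjusted p = 0.0759) or siNC replicate 2 (0.0524) and on the score. SLC30A7, which loads zinc into the secretory pathway, fell (-0.33). SLC39A10 (-0.28) and SLC39A13 (-0.27), of the same SLC39 family as the importer genes that rose, also fell. So did the chromatin protein gene MTF2 (-0.27), which is no metal sensor despite its symbol.

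Among 21 tested copper enzymes and copper-binding proteins, 3 rose and 5 fell, with a median log2 fold change of -0.02. The lysyl oxidase genes, whose copper-dependent products crosslink collagen and elastin, held 1 higher, 2 lower and 2 uncalled genes among the 5 tested. LOX stood at 105 ± 5.32 CPM in siCCNL2 and 63.0 ± 1.36 CPM in siNC (log2 fold change 0.74, adjusted p = 4.20e-11), while LOXL1 stood at 19.5 ± 1.44 CPM in siCCNL2 and 32.2 ± 0.746 CPM in siNC (-0.73, adjusted p = 6.43e-08). The remaining members, looked up after the lists were tested, were LOXL2, which fell (-0.14, adjusted p = 0.00245), and LOXL3 (0.24, adjusted p = 0.417) and LOXL4 (-0.37, adjusted p = 0.142), which were not called. MOXD1, a monooxygenase gene, also rose (0.36), and MAP2K1, which encodes the copper-binding kinase MEK1, fell (-0.22). ULK1 (0.18) and MEMO1 (-0.55) were called but lost their calls under 9 and 7 of 17 alternatives. The mitochondrial DNA genes of the copper subunits of cytochrome c oxidase, looked up after the lists were tested, were not called, MT-CO1 at a log2 fold change of -0.06 (adjusted p = 0.0952) and MT-CO2 at 0.03 (0.607).

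Of 12 tested genes listed under mitochondrial copper delivery beside COX17, 4 fell and 0 rose by edgeR's quasi-likelihood test. Their median log2 fold change was -0.05, and a place in the list does not mean that a gene product itself carries copper. The called share was 33.3%, against 33.6% of all tested genes (16.5% lower and 17.2% higher). At an unadjusted p under 0.05 the counts for these 12 genes were 4 lower and 2 higher. DESeq2 and limma-voom also called 0 higher, while 1 gene was called higher without siCCNL2 replicate 2 or without siNC replicate 3. Among them, SLC25A3, the mitochondrial carrier of phosphate and copper, stood at -0.14 on the log2 scale (adjusted p = 0.00165), COA4 at -0.20 (0.00737), COX19 at -0.29 (0.0297) and CHCHD7 at -0.16 (0.028). COX19 lost its call under 8 and CHCHD7 under 5 of 17 alternatives, and COA4 without siCCNL2 replicate 3 (adjusted p = 0.0572). SCO1 and COX11, which insert copper after COX17 and were likewise looked up afterwards, were not called (log2 fold changes 0.05 and 0.11, adjusted p 0.549 and 0.113). Libraries of the groups did not overlap for COX11. CMC1, also looked up afterwards, had the largest positive log2 fold change of the tested genes here (0.27, adjusted p = 0.104), with overlapping libraries. By edgeR's quasi-likelihood test on all 6 libraries, the rise of COX17 had no called counterpart in this list.

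Of 19 tested genes for copper reduction and for trafficking of the ATPases, 3 rose and 3 fell, with a median log2 fold change of 0.06. GLRX, a glutaredoxin gene (log2 fold change 0.35), AP1M1, a subunit of the adaptor that sorts the ATPases (0.25), and CCDC93, of the complex that recycles them from endosomes (0.20), rose. The metal reductase gene STEAP3 fell to 79.7 ± 1.07 CPM in siCCNL2, against 98.4 ± 2.11 CPM in siNC (log2 fold change -0.31, adjusted p = 1.36e-05). COMMD1, which promotes copper export with ATP7B (-0.33, adjusted p = 0.0364), and the reductase gene CYBRD1 (-0.12, adjusted p = 0.0462) were also called lower but lost their calls under 7 and 8 of 17 alternatives, and CCDC93 lost its call on the score (adjusted p up to 0.0809).

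Among 14 tested genes of lipoylation and copper-induced cell death, 2 rose and 2 fell, with a median log2 fold change of 0.05. FDX1, the ferredoxin gene central to this form of death, stood at 0.26 on the log2 scale (adjusted p = 0.0398, lost under 7 of 17 alternatives). PDHX (-0.21) and DLST (-0.15), components of lipoylated dehydrogenase complexes, fell. Among 10 tested genes for other routes of platinum transport and detoxification, 3 rose and 1 fell, with a median of 0.01. LRRC8A (0.32) and LRRC8D (0.28), subunits of the anion channel that admits cisplatin, and GSTP1, a glutathione transferase gene (0.18), rose, and GSS, glutathione synthetase, was called lower (-0.12, adjusted p = 0.0485, lost under 7 of 17 alternatives).

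**Figure D4:**
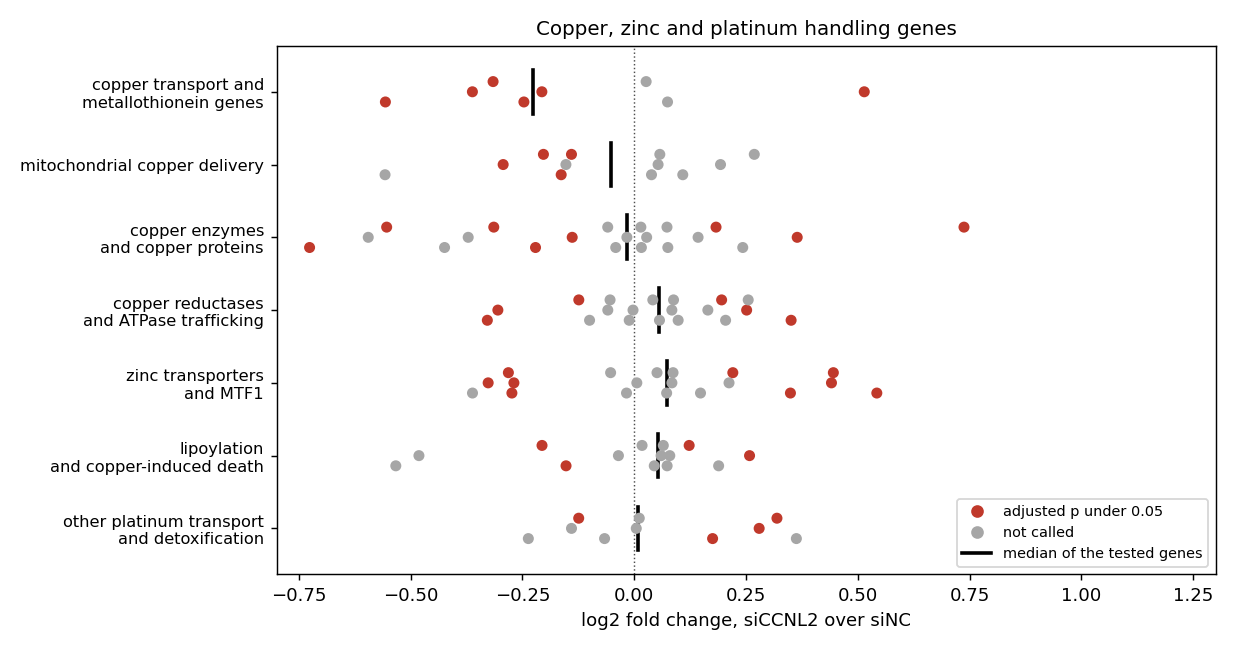
Log2 fold change (siCCNL2 over siNC) of each tested gene in the copper and metallothionein group and 6 wider lists, red where called at an adjusted p under 0.05, with a black bar at each list's median. The medians of the wider lists lie between -0.05 and 0.07, and that of the copper transport and metallothionein genes lies at -0.23.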

How the data were processed

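RNA of 6 HEY libraries was measured by sequencing, 3 siCCNL2 and 3 siNC, with groups taken from the labelled genotype. The authors deposited raw counts of reads for every gene and library. They also deposited TPM-like values, treated here as a score, which the authors scaled by gene length and library. Tools listed in the submitters' processing notes, without role, were fastp 0.23.0, HISAT2 and HTSeq 2.0.1, and the build listed was GRCh38. Annotation release and strand setting are not given in the sources used here.

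Each of 60835 gene names was used once (62710 rows). Genes were filtered with filterByExpr, then tested with edgeR 4.0.16 in R 4.3.3 (TMM, glmQLFit, glmQLFTest, no covariates), with Benjamini-Hochberg adjustment over 15346 genes and a threshold of 0.05. The same code was tested on simulated data. Named genes were the 10 genes described, CCNL2, and the nearest tested neighbours of SLC31A1, CCS and COX17. Of each wider list, at most 4 called genes per direction were named, largest change first. Exceptions are stated where they occur. Some called genes of the wider lists are counted but not reported here by name. Genes and lists were chosen with earlier results of these data known. Alternatives used DESeq2 1.42.0, limma 3.58.1, other factors, filters and thresholds, a replicate block, and the omission of each library. Standard errors and intervals cover these libraries only. Shared words were 50-base stretches of GENCODE 29 transcripts, searched on both strands, and promoter sequences were those of RefSeq, found for 8 of the 10 genes.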

Additional observations from a re-analysis of the deposited data

How the results depend on the processing

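CCNL2, SLC31A1 and MT2A kept their calls and directions in all 17 alternatives. The number of copper transport and metallothionein genes called lower was 2 with the DESeq2 Wald test, with log2 of the score plus 1 or plus 0.1, and at a threshold of 0.01, and ran from 2 to 4 when a library was left out, while the number called higher ran from 0 to 1. ATP7A lost its call with the Wald test (log2 fold change -0.36), on the score plus 1 (-0.29), on the score plus 0.1 (-0.36) and at the 0.01 threshold (-0.36), and ran from -0.40 to -0.33 without single libraries. ATP7B lost its call without a count filter (-0.25), with the Wald test (-0.25), on the score (-0.23 with 1 and -0.25 with 0.1 added) and at the 0.01 threshold (-0.25), and ran from -0.28 to -0.20 without single libraries. CCS lost its call with the Wald test (-0.31), on the score (-0.30 and -0.31) and at the 0.01 threshold (-0.32), and ran from -0.45 to -0.23 without single libraries. COX17 ran from 0.37 to 0.62 without single libraries. ATOX1 reversed to -0.034 without siCCNL2 replicate 2 and to -0.0056 without siNC replicate 1 (range up to 0.11), and MT1E to -0.022 without siCCNL2 replicate 1 (up to 0.17), neither being called. Over the wider lists together, 19 genes were called lower, against 12 with the Wald test and 12 at the 0.01 threshold, and 12 to 20 without single libraries. The cause of these shifts was not tested, beyond the stricter threshold and the smaller number of samples themselves.

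Replicate numbers are shared by the groups, but deviations of same-numbered libraries correlated at only 0.0412, 0.0222 and 0.0359, so no pairing was assumed. With the number as a replicate block 5234 genes were called, against 5159 without, and 5 of the genes described were lower and 1 higher, as without the block. Genes with few reads, SLC31A2, MT1X and MT1A, are limited by depth.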
